A study of Mus musculus with 4 samples.

Results

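A set of 10 genes of glutathione supply and of the defence against lipid peroxidation were followed in single nuclei of the mouse thalamus after a haemorrhage. These were Nfe2l2, Gclc, Gclm, Slc7a11, Gpx4, Txnrd1, Srxn1, Nqo1, Aifm2 and Acsl4. The members were chosen by symbol, and all 10 were found among the 40091 genes listed in at least 1 of the 4 libraries.

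The study injected type IV collagenase, which digests the vessel wall and makes it bleed, into VPM and VPL of the right thalamus (the COL group) or saline into the same place (the NS group). The animals were adult wild-type C57BL6 mice of 7 to 8 weeks with no transgene in either group. Each library pooled the tissue of 3 mice collected 7 days after the injection, and there were 2 libraries per group. An unoperated group is not analysed here, so the injection itself is shared by both groups.

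Glutathione is made from glutamate, cysteine and glycine, and its supply is set by glutamate-cysteine ligase and by the import of cystine. The selenoenzyme GPX4 uses glutathione to reduce peroxides in membrane lipids, and iron-dependent death with lipid peroxidation, called ferroptosis, follows when it fails. The transcription factor NRF2 turns on many genes of this defence through antioxidant response elements, and blood in brain tissue is a known source of haem and iron.

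Nfe2l2 (ENSMUSG00000015839, chr2:75675513-75704641, minus strand) encodes NRF2. Gclc (ENSMUSG00000032350, chr9:77754535-77794485, plus strand) and Gclm (ENSMUSG00000028124, chr3:122245557-122270732, plus strand) encode the catalytic and the modifier subunit of glutamate-cysteine ligase, the first enzyme of glutathione synthesis. Slc7a11 (ENSMUSG00000027737, chr3:49892526-50443614, minus strand) encodes the light chain of the cystine-glutamate exchanger xCT. Gpx4 (ENSMUSG00000075706, chr10:80047166-80056439, plus strand) encodes the phospholipid hydroperoxide glutathione peroxidase.

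Txnrd1 (ENSMUSG00000020250, chr10:82833951-82897712, plus strand) encodes cytosolic thioredoxin reductase, and Srxn1 (ENSMUSG00000032802, chr2:152105516-152111376, plus strand) encodes sulfiredoxin, which repairs overoxidised peroxiredoxins. Nqo1 (ENSMUSG00000003849, chr8:107388225-107403206, minus strand) encodes a quinone reductase and is a classical NRF2 target. Aifm2 (ENSMUSG00000020085, chr10:61715263-61739260, plus strand) encodes FSP1, which keeps ubiquinone reduced in membranes without glutathione. Acsl4 (ENSMUSG00000031278, chrX:142317993-142390535, minus strand) works on the other side, since this acyl-CoA synthetase loads membranes with the polyunsaturated fatty acids that are peroxidised. Coordinates are those of GENCODE M21 on GRCm38 and span whole genes. Counted genes on the same strand lie within Slc7a11 (Gm37498), Gclm (Gm6061) and Txnrd1 (Eid3), so they may affect the counts of these members. Gm37692 in Slc7a11 and Gm24996 in Nfe2l2 also lie on the same strand, but are not among the genes listed. Genes of the opposite strand overlap Slc7a11, Gclm, Txnrd1 and Aifm2.

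Promoter windows of 300 bases, 250 before and 50 after a RefSeq start site, were searched on both strands for the core of the antioxidant response element, TGACNNNGC or TGAGNNNGC. Of all 32817 windows in the RefSeq table, 12.4% held the first form, 17.7% the second and 27.8% either. The 4 windows below are shown because each holds a core and belongs to a gene of glutathione supply or of the thioredoxin system. Capitals mark the core, in its reverse complement where it lies on the other strand, and all 4 are written 5′ to 3′ on the transcribed strand (GRCm38.p6). The first lies at chr3:50443564-50443863 (minus strand), the second at chr3:122245307-122245606, the third at chr10:82858956-82859255 and the fourth at chr2:152105274-152105573 (all plus strand).
Slc7a11: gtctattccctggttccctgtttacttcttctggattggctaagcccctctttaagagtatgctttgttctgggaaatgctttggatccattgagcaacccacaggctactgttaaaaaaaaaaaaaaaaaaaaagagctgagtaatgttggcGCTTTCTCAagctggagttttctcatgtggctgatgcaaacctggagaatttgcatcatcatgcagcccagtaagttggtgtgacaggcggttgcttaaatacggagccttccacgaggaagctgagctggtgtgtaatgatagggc
Gclm: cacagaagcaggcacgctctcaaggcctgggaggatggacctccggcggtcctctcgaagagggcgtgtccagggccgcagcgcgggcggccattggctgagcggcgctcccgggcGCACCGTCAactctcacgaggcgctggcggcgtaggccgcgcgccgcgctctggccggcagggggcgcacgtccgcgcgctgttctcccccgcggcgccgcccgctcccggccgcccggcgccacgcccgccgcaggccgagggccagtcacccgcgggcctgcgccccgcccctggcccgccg
Txnrd1: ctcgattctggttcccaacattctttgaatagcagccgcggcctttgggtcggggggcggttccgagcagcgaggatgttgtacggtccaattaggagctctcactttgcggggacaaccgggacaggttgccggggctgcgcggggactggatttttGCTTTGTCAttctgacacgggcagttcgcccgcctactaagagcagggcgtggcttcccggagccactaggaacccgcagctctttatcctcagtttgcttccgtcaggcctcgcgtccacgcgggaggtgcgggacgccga
Srxn1: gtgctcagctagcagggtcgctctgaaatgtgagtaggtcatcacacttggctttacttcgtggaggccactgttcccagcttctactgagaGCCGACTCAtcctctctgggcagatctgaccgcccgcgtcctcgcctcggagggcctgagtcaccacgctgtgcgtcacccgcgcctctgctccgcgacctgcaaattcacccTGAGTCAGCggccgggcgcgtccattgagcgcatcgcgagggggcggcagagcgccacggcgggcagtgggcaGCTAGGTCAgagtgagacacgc

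The first base of the core stood at position -97 in Slc7a11, -134 in Gclm and -92 in this window of Txnrd1, counted from the start site. Srxn1 held 3 cores, at -158, -45 and 29. It also held 2 matches of the AP-1 site TGAGTCA, 1 of which overlaps the core at -45, and 5.20% of all windows held such a match. Acsl4 held 2 cores and Nfe2l2 held 1, whereas the windows of Gpx4, Nqo1 and Aifm2 and the other 2 windows of Txnrd1 held none. A match of these letters describes the window and is not a measured binding site.

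The libraries held 68746459 to 77557870 UMIs (unique molecular identifiers, 1 per captured RNA molecule). After the study's filter 9673 and 10422 nuclei remained in NS, and 5931 and 6265 in COL. Median UMIs per nucleus were 6489 and 4649 in NS against 8664 and 8691 in COL, so levels are given as CPM, the UMIs of a gene per 1000000 UMIs of that cell class in that library. Between 31 and 65 barcodes of a library also occurred in another. Clusters with the defining markers gave 13536 nuclei of neurons, 8821 of oligodendrocytes, 2639 of astrocytes, 1588 of microglia, 1323 of oligodendrocyte precursors (OPC) and 799 of macrophages, of which 8 came from NS. The first 5 of these are the main classes, and the OPC class includes committed precursors. The neurons held both excitatory and inhibitory clusters, and the inhibitory ones held 7425 of 8878 neurons in NS and 3462 of 4658 in COL. The thalamic marker Tcf7l2 measured 192 and 328 CPM in NS neurons and 512 and 267 CPM in COL neurons. A neuron cluster counted as excitatory where Slc17a6 and Slc17a7 summed to more CPM than Gad1, Gad2 and Slc32a1, and otherwise as inhibitory. A further cluster of 1433 nuclei (311 and 176 in NS, 716 and 230 in COL) carried neuron markers and stayed unnamed. It held 806.9 CPM of Tcf7l2 and is not part of the neurons counted or tested here. How many of the neurons came from outside the thalamus was not tested. NS and COL nuclei of 1 class lay mostly in different clusters, although the members and the pathway list were left out of the clustering.

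Levels across cell classes are a description. Slc7a11 was an astrocyte gene in this tissue outside the macrophages and vessels. It measured 294 and 267 CPM in NS astrocytes and 452 and 368 CPM in COL astrocytes. No other main class exceeded 28.3 CPM in any library, so astrocytes did not overlap with the next class. Nfe2l2 was ordered microglia (204 ± 44.8 CPM, SD over 4 libraries), astrocytes (57.9 ± 8.53), oligodendrocytes (30.0 ± 5.73), OPC (18.5 ± 5.83) and neurons (6.78 ± 2.00). In that order only oligodendrocytes and OPC overlapped.

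Microglia also led in Acsl4 (159 ± 46.5 CPM) and in Gclc (109 ± 47.5 CPM), and in both their lowest library lay above every library of the next class. The other 4 classes lay between 36.8 and 62.2 CPM in Gclc. Gclm, the partner subunit, was nearly level over all 4 libraries, with means from 26.5 CPM in OPC to 34.7 CPM in oligodendrocytes. Every pair of neighbours overlapped. The groups ordered the classes differently. Means ran from 21.9 CPM in OPC to 35.1 CPM in oligodendrocytes in NS, where these 2 classes did not overlap. In COL they ran from 25.3 CPM in neurons to 40.4 CPM in microglia. Gpx4 was ordered within each group, since the groups differed. In NS it measured 24.3 and 24.1 CPM in neurons, 32.3 and 41.2 CPM in OPC and 58.6 and 45.4 CPM in astrocytes, with no overlap between these 3 classes, and its highest mean was in oligodendrocytes (70.2 ± 6.64 CPM, SD, n = 2). In COL its means ran from 9.53 ± 5.86 CPM in OPC and 9.92 ± 5.03 CPM in neurons to 29.8 ± 20.2 CPM in oligodendrocytes. Srxn1 did not exceed 10.4 CPM and Aifm2 did not exceed 9.75 CPM in any of the 5 main classes. Nqo1 did not exceed 3.31 CPM in any library of these classes. That highest value, in NS astrocytes, rested on 15 UMIs.

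**Figure D1:**
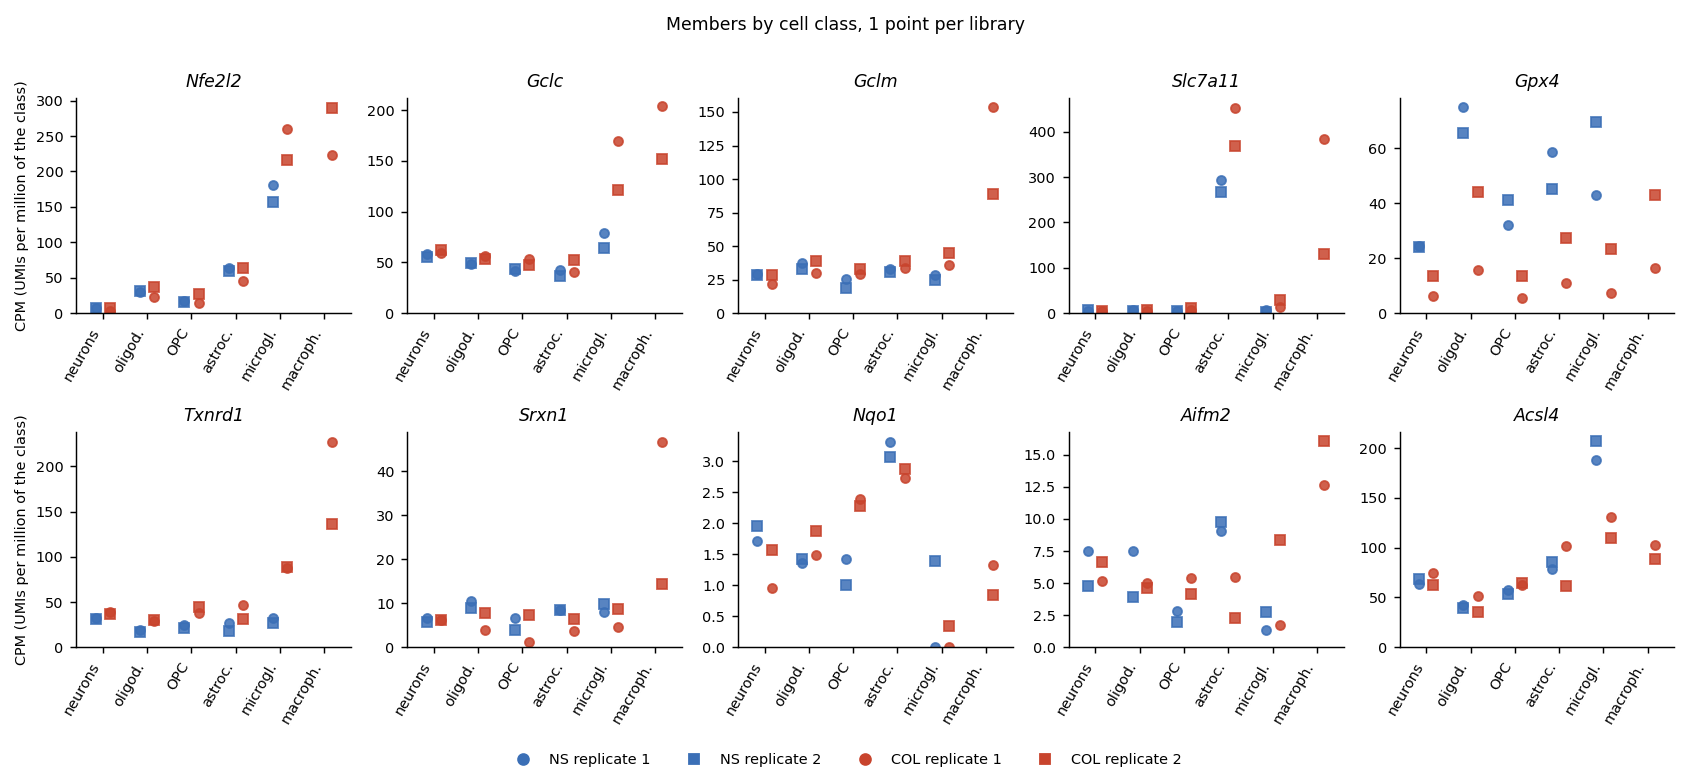
Level of each member in CPM (y axis, linear, own scale in each panel) by cell class (x axis), 1 point per library, with NS in blue and COL in red. Macrophages are drawn for COL, since NS held 8 of them. Slc7a11 stood in astrocytes and macrophages, Nfe2l2 stood lowest in neurons and highest in microglia and macrophages, and Gpx4 was lower in both COL libraries than in both NS libraries of each class.

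Macrophages came almost entirely from COL, and in both COL libraries the cluster carried Txnrd1, Gclm and Srxn1 above every library of the main classes. Slc7a11, which was higher in the astrocytes of the same libraries, measured 385 and 131 CPM in the 318 and 473 macrophages of COL. This equals 1.82 and 0.655 UMIs per nucleus. Txnrd1 measured 228 and 136 CPM, Gclc 204 and 152 CPM, and Gclm 154 and 88.6 CPM. Srxn1 reached 46.6 and 14.3 CPM in macrophages, above the 10.4 CPM that was its highest value in the main classes. COL replicate 1 was the higher library in all 5 of these genes. Nfe2l2 went the other way, with 223 and 289 CPM, and Gpx4 did too, with 16.6 and 43.0 CPM. A cluster of dividing microglia reached 135.9 CPM of Txnrd1 in COL replicate 1, close to the 136.3 CPM of macrophages in COL replicate 2. In COL macrophages the neuron markers summed to 8532 and 6375 CPM and the oligodendrocyte markers to 2347 and 3914 CPM. The microglial markers summed to 1427 and 1714 CPM, and the part of other cells in the macrophage values was not tested. Macrophages were not tested, because the NS libraries held 3 and 5 of them, fewer than the 20 nuclei required of each library.

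In the vascular cluster, with markers of endothelial cells, pericytes and fibroblasts, Slc7a11 measured 791 and 907 CPM in NS (34 and 63 nuclei) and 1597 and 671 CPM in COL (27 and 48 nuclei). These were the highest levels of the gene among the named classes of each library with at least 20 nuclei, and the groups overlapped (log2 0.33 ± 0.43 SE, edgeR adjusted p = 0.792). Without COL replicate 1 the log2 value was -0.34. A UMI of the gene was found in 17.6% and 33.3% of these nuclei in NS and 40.7% and 39.6% in COL, against 46.4% to 71.3% of astrocytes. The makeup of the cluster varied, since the endothelial list summed to 4186 CPM in COL replicate 1 against 1771 to 1840 CPM in the other 3 libraries, and the list of pericytes and fibroblasts to 6115 CPM in NS replicate 1 against 2453 to 2669 CPM. None of the 4 members tested there (Slc7a11, Acsl4, Nfe2l2 and Gclc) was called by edgeR or by DESeq2, where edgeR called 2.83% of all 4489 genes and 792 had an unadjusted p under 0.05. Acsl4 measured 28.2 and 39.1 CPM in NS and 70.9 and 74.6 CPM in COL, on 2 to 25 UMIs per library (edgeR adjusted p = 0.427). The summed astrocyte markers were also seen there, at 3107 and 3085 CPM in NS and 2277 and 1646 CPM in COL, against 8477 to 9322 CPM in astrocytes. T and NK cells were too few in NS for a test. In those of COL (53 and 79 nuclei) Slc7a11 gave 1 UMI and 0 UMIs, while Acsl4 gave 94.3 and 134 CPM.

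COL was then compared with NS within each class, to ask which cells changed their defence genes. The 2 libraries of COL did not overlap with the 2 of NS, in either direction, for 59.4% of all genes tested in neurons, 68.1% in oligodendrocytes, 62.1% in astrocytes, 67.0% in microglia and 61.5% in OPC, so groups without overlap were common. Microglia held the most members past the test. Of the 8 members tested there, Txnrd1, Gclc, Slc7a11 and Nfe2l2 were called higher, and Gpx4 and Acsl4 lower (edgeR, adjusted p under 0.05). This count of 6 stands beside 29.5% of all 12078 genes called in microglia, 15.0% higher and 14.4% lower. The median log2 fold change of the members tested was 0.62, against 0.02 over all genes tested. Nqo1 and Aifm2 were too low for the test in microglia. Slc7a11 passed the filter on low counts through COL and Gpx4 through NS, each the group where it was higher.

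Txnrd1, thioredoxin reductase, measured 32.3 and 26.5 CPM in NS microglia and 87.6 and 88.8 CPM in COL microglia. Per nucleus this was 0.0748 and 0.0552 UMIs in NS and 0.409 and 0.461 UMIs in COL, at median depths of 2230 and 1995 UMIs per nucleus in NS and 4054 and 4354 UMIs in COL. Both COL libraries lay far above both NS libraries. The gene rose 3.14-fold (log2 1.65 ± 0.25 SE, n = 2 per group, edgeR adjusted p = 0.000233).

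Gclc, the catalytic subunit, measured 79.4 and 64.1 CPM in NS and 170.0 and 122 CPM in COL, again without overlap. It rose 2.12-fold (log2 1.09 ± 0.23 SE, edgeR adjusted p = 0.00278). Gclm measured 28.3 and 25.1 CPM in NS and 35.7 and 45.1 CPM in COL. The groups did not overlap, yet the difference (log2 0.68 ± 0.29 SE) did not pass the test (edgeR adjusted p = 0.0942).

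Slc7a11 rested on few molecules in microglia, with 6 and 2 UMIs in NS and 25 and 81 UMIs in COL. Only 1.87% and 0.581% of NS microglia and 4.84% and 5.26% of COL microglia held a UMI of it. These are 8.08 and 2.79 CPM in NS and 14.4 and 28.3 CPM in COL. The groups did not overlap and the gene rose 4.16-fold (log2 2.06 ± 0.55 SE, edgeR adjusted p = 0.0117). The gene passed the filter on low counts through COL, so its place among the genes tested depended on the group where it was high. DESeq2 did not call it (adjusted p = 0.0908), and edgeR lost the call without NS replicate 2 (edgeR adjusted p = 0.0689), without COL replicate 2 (edgeR adjusted p = 0.176) and where each nucleus was named by its own markers (log2 0.73, edgeR adjusted p = 0.331). Without NS replicate 1 the log2 fold change was 2.97.

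Nfe2l2, encoding NRF2, measured 180.4 and 157 CPM in NS microglia and 259.8 and 217 CPM in COL microglia. It rose 1.48-fold (log2 0.57 ± 0.18 SE, edgeR adjusted p = 0.0286). This call did not hold without NS replicate 1, NS replicate 2 or COL replicate 1 (edgeR adjusted p = 0.0928, 0.212 and 0.117), nor with DESeq2 (adjusted p = 0.0816).

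On the lower side, Acsl4 measured 189 and 207 CPM in NS microglia and 131 and 109 CPM in COL microglia. Per nucleus it gave 0.436 and 0.433 UMIs in NS and 0.610 and 0.568 UMIs in COL, so it was not lower by that measure. As a share of the UMIs of the class it fell by 0.66 ± 0.18 (SE) on the log2 scale (edgeR adjusted p = 0.0153). The fall missed the test without NS replicate 2 (edgeR adjusted p = 0.138), with DESeq2 (adjusted p = 0.103), by the markers of each nucleus (edgeR adjusted p = 0.0626) and without the dividing cluster (edgeR adjusted p = 0.0684). Gpx4 measured 43.1 and 69.6 CPM in NS and 7.49 and 23.4 CPM in COL and was 3.26-fold lower in COL (log2 -1.71 ± 0.40 SE, edgeR adjusted p = 0.00559). Without COL replicate 2 the log2 value was -2.81, and without COL replicate 1 it was -1.22.

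Txnrd1, Gclc and Gpx4 kept their microglial calls with DESeq2, with each replicate left out, and under all 3 other ways of choosing nuclei (doublets removed, nuclei named by their own markers, dividing cluster left out). The microglia of NS lay in cluster 12 (319 of 321 and 339 of 344 nuclei). Those of COL lay in cluster 10 (294 of 372 and 420 of 551 nuclei) and in the dividing cluster 22 (74 and 126 nuclei). In cluster 22 Gclc measured 260.3 and 159.8 CPM and Txnrd1 136 and 107 CPM, above the 132 and 102 CPM of Gclc and the 67.1 and 79.4 CPM of Txnrd1 in cluster 10. Slc7a11 was lower in the dividing cluster, with 7.66 and 13.1 CPM against 17.4 and 36.5 CPM. Without the dividing cluster Gclc rose by 0.77 and Txnrd1 by 1.41 on the log2 scale (edgeR adjusted p = 0.0307 and 0.00277).

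Markers of other cells moved in the same nuclei. All 6 macrophage markers tested in microglia, of 8 listed, were called higher, and the list summed to 18.9 and 83.6 CPM in NS against 249 and 365 CPM in COL. In the macrophages themselves it summed to 3378 and 3163 CPM in COL. The microglial list had 6 of 8 markers called lower, from 7360 and 7104 CPM to 4877 and 4846 CPM, and the neuronal list had 4 of 8 called higher, from 4108 and 3820 CPM to 8082 and 7378 CPM. Defining T and NK cell markers were at or near 0, with a list sum of 4.18 to 18.9 CPM. The astrocyte list had 4 of 6 tested called lower, from 623 and 532 CPM to 291 and 305 CPM, the OPC list 3 of 5 called higher, from 338 and 279.9 CPM to 645 and 689 CPM, and the oligodendrocyte list 3 of 8 called higher although its sums overlapped. The part of RNA from other cells in the microglial values was not tested.

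**Figure D2:**
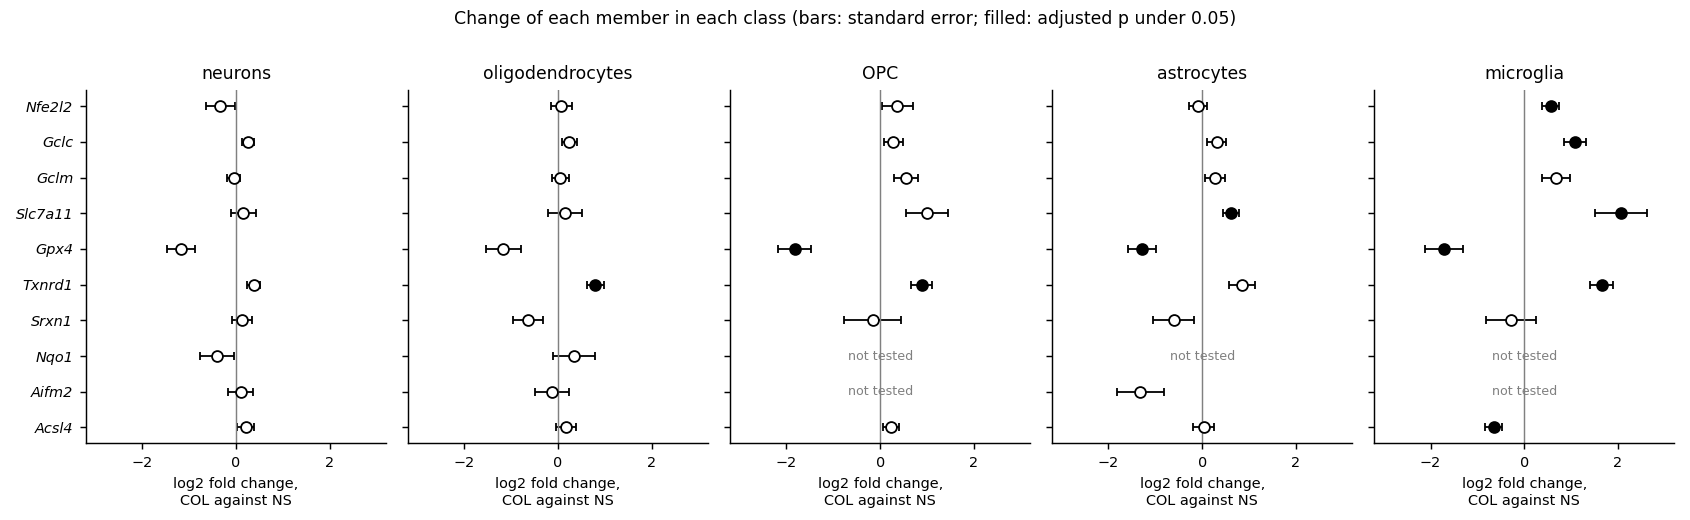
Log2 fold change of each member, COL against NS, in the 5 main classes (x axis), with bars of 1 standard error and filled points where the edgeR adjusted p was under 0.05. Txnrd1 lay to the right of 0 and Gpx4 to the left in all 5 classes, and microglia held 6 of the filled points.

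In astrocytes 2 of 9 members tested were called, where 18.0% of all 13880 genes were. Slc7a11, at 294 and 267 CPM in NS and 452 and 368 CPM in COL, rose 1.53-fold (log2 0.61 ± 0.16 SE, edgeR adjusted p = 0.0216). The libraries did not overlap. The call was lost without NS replicate 1, NS replicate 2 or COL replicate 1 (edgeR adjusted p = 0.107, 0.127 and 0.0858). Gpx4 went from 58.6 and 45.4 CPM in NS to 10.9 and 27.6 CPM in COL, a 2.42-fold lower level (log2 -1.28 ± 0.30 SE, edgeR adjusted p = 0.0132), and stood at log2 -2.17 without COL replicate 2 and at log2 -0.86 without COL replicate 1.

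Astrocyte Txnrd1 lay just outside the threshold (26.7 and 18.1 CPM against 47.2 and 31.6 CPM, log2 0.84 ± 0.27 SE, edgeR adjusted p = 0.0502). Aifm2, encoding FSP1, had 41 and 35 UMIs in NS astrocytes and 6 and 4 UMIs in COL astrocytes. That difference (log2 -1.32 ± 0.50 SE) did not pass (edgeR adjusted p = 0.0852) and moved to log2 -1.95 without COL replicate 1 and to log2 -0.69 without COL replicate 2. NS astrocytes came from cluster 5 and COL astrocytes from cluster 17, and the macrophage list summed to 9.70 and 15.3 CPM in NS and 45.4 and 81.0 CPM in COL, with 3 of 4 tested called higher. The neuronal list summed to 2924 and 2751 CPM in NS and 6131 and 4774 CPM in COL, with 4 of 8 called higher. The OPC list had 3 of 6 tested called higher, from 1798 and 1907 CPM to 2072 and 2143 CPM, the oligodendrocyte list 2 of 8 and the list of ependymal and choroid cells 2 of 2. The part of these in the astrocyte values was not tested.

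OPC had 2 of 8 members called, where 18.9% of all 13195 genes were. Txnrd1 rose 1.85-fold, from 24.2 and 21.6 CPM to 38.3 and 44.4 CPM (log2 0.89 ± 0.23 SE, edgeR adjusted p = 0.0152). The call was lost without NS replicate 2 (edgeR adjusted p = 0.0782) and with DESeq2 (adjusted p = 0.163). Gpx4 was 3.54-fold lower, at 32.3 and 41.2 CPM in NS against 5.38 and 13.7 CPM in COL (log2 -1.83 ± 0.34 SE, edgeR adjusted p = 0.00259). Without COL replicate 2 the log2 value was -2.69, and without COL replicate 1 it was -1.40. Slc7a11 measured 5.70 and 4.02 CPM in NS OPC and 7.77 and 11.0 CPM in COL OPC, without passing (edgeR adjusted p = 0.135). NS nuclei lay mostly in cluster 13 and COL nuclei in cluster 11. Mki67, a gene of dividing cells, measured 3.16 CPM in cluster 13 and 52.8 CPM in cluster 11. Called doublets made up 0.156% of cluster 13 and 12.3% of cluster 11. The part of committed or dividing precursors in the OPC changes was not tested. Both macrophage markers tested in OPC were called higher, with a list sum of 2.85 and 4.52 CPM in NS against 35.3 and 77.9 CPM in COL. The neuronal list had 3 of 8 called higher, from 4614 and 4471 CPM to 6736 and 5543 CPM, and the oligodendrocyte list 2 of 8 called lower, from 3867 and 4136 CPM to 2322 and 3437 CPM. Their part in the OPC results was not tested.

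Oligodendrocytes had 1 of 10 members called, where 22.3% of all 17145 genes were. Txnrd1 rose 1.73-fold, from 19.0 and 16.9 CPM to 28.8 and 29.9 CPM (log2 0.79 ± 0.18 SE, edgeR adjusted p = 0.0195). It did not pass without NS replicate 1 or NS replicate 2 (edgeR adjusted p = 0.0966 and 0.143). Gpx4 measured 74.9 and 65.5 CPM in NS and 15.5 and 44.1 CPM in COL, and narrowly missed (log2 -1.17 ± 0.37 SE, edgeR adjusted p = 0.0523). It passed with DESeq2 (adjusted p = 0.0093) and with the replicate number as a block (log2 -1.30). It was log2 -2.08 without COL replicate 2 and log2 -0.64 without COL replicate 1, and passed with any 1 library left out. NS oligodendrocytes lay in clusters 1 and 6 and those of COL in cluster 2. All 5 macrophage markers tested in oligodendrocytes were called higher, and the list summed to 3.53 and 4.71 CPM in NS against 37.3 and 95.0 CPM in COL. The neuronal list, with 4 of 8 called higher, summed to 3135 and 2842 CPM against 6739 and 5105 CPM, and the OPC list, with 3 of 7 tested called higher, to 279 and 242 CPM against 684 and 676 CPM. The astrocyte list had 4 of 8 called lower, from 460 and 382 CPM to 232 and 268 CPM, and the list of ependymal and choroid cells 2 of 4 tested called higher. Their part in the Txnrd1 result was not tested.

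Neurons had none of 10 members called by edgeR, where 0.00429% of all 23305 genes were. This is 1 gene, Hmox1 (haem oxygenase), although 6674 genes had an unadjusted p under 0.05. DESeq2 called 1 member in neurons, Gpx4 (adjusted p = 0.0108). Gpx4 measured 24.3 and 24.1 CPM in NS neurons and 6.36 and 13.5 CPM in COL neurons. This was log2 -1.16 ± 0.30 SE (edgeR adjusted p = 0.0986), without COL replicate 2 log2 -1.74 (edgeR adjusted p = 0.00949) and without COL replicate 1 log2 -0.79 (edgeR adjusted p = 0.149). Txnrd1 measured 32.8 and 31.7 CPM in NS and 38.6 and 36.4 CPM in COL (log2 0.37 ± 0.15 SE, edgeR adjusted p = 0.164). Gclc measured 58.1 and 55.0 CPM in NS and 59.5 and 62.2 CPM in COL. Its groups did not overlap, and the difference did not pass (log2 0.26 ± 0.12 SE, edgeR adjusted p = 0.222). NS neurons lay mostly in clusters 0 and 4, and COL neurons in cluster 3 (980 of 2205 and 1714 of 2453 nuclei) and in the glutamatergic cluster 7 (680 and 322 nuclei). Glutamatergic clusters held 522 of 4706 and 931 of 4172 neurons in NS and 858 of 2205 and 338 of 2453 in COL. In them Gpx4 measured 14.2 and 18.1 CPM in NS and 6.26 and 14.1 CPM in COL. In the inhibitory clusters Gpx4 measured 26.5 and 26.9 CPM in NS and 6.45 and 13.4 CPM in COL. Srxn1 went from 5.93 and 5.52 CPM to 9.07 and 10.1 CPM in glutamatergic clusters. In inhibitory clusters it went from 6.73 and 5.99 CPM to 3.71 and 5.35 CPM. The part of this makeup in the pooled neuron values was not tested.

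Gpx4 moved together with the genes of ribosomal proteins. Per nucleus it gave 0.261 and 0.209 UMIs in NS oligodendrocytes and 0.0905 and 0.288 UMIs in COL oligodendrocytes. The groups overlapped by that measure in astrocytes and microglia as well, but not in neurons or OPC. In CPM its 4 libraries did not overlap between groups in any of the 5 main classes, and COL replicate 1 was the lowest. COL lay below NS without overlap in 38.4% of all genes tested in neurons, 38.3% in oligodendrocytes, 36.8% in astrocytes, 36.0% in microglia and 33.8% in OPC. The 89 ribosomal protein genes summed to 6354 and 6785 CPM in NS microglia and 1621 and 3033 CPM in COL microglia. In oligodendrocytes they summed to 5049 and 5055 CPM in NS and 1099 and 2609 CPM in COL, and in neurons to 2459 and 2274 CPM and to 668 and 1372 CPM. COL replicate 1 was lowest in these genes too, in all 5 classes. The share of mitochondrial UMIs lay between 0.0897% and 0.623% in these classes. It overlapped between the groups in 4 of them and was above NS in both COL libraries of microglia. The part of this library-wide difference in the Gpx4 result was not tested.

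**Figure D3:**
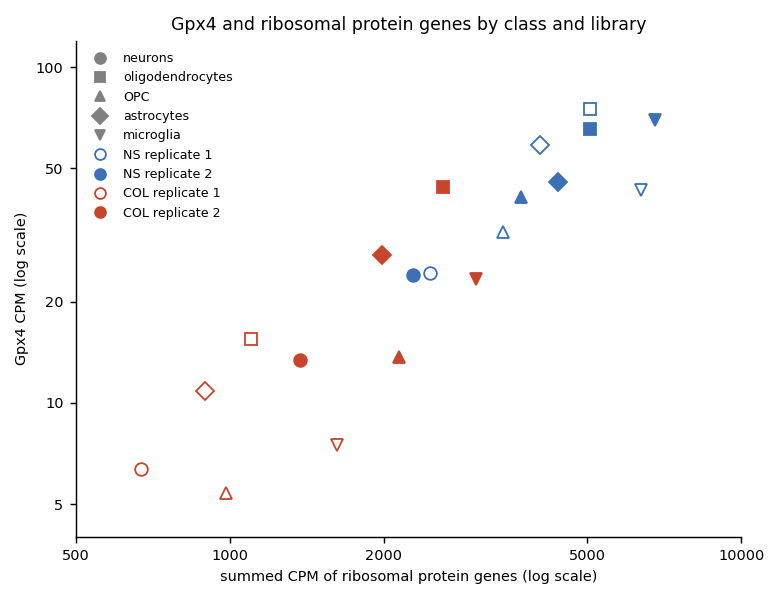
Gpx4 in CPM (y axis, log scale) against the summed CPM of 89 ribosomal protein genes (x axis, log scale), 1 point per class and library (20 points), with NS in blue, COL in red, open symbols for replicate 1 and filled ones for replicate 2. The COL points of every class lie below and to the left of its NS points, with COL replicate 1 farthest.

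The changes of the classes were then compared in 1 fit with terms for library and class, as the change in a class minus the mean change in the other 4. The class sums of a library come from the same pool of mice. Microglia differed in 4 of 9 members tested, where 9.18% of all 18109 genes did. The microglial change exceeded the mean of the others by 1.03 ± 0.25 (SE, log2) in Txnrd1 (edgeR adjusted p = 0.00572), by 0.88 ± 0.19 in Gclc (adjusted p = 0.00248) and by 0.67 ± 0.21 in Nfe2l2 (adjusted p = 0.0450). In Acsl4 it was below it, at -0.71 ± 0.16 (edgeR adjusted p = 0.00356). In neurons, oligodendrocytes and astrocytes the CPM of Acsl4 overlapped between the groups, and in OPC it was 57.9 and 53.2 in NS and 62.8 and 65.0 in COL.

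Neurons differed in 2 of 9 members, where 9.69% of all genes did. Their change was below that of the others by -0.74 ± 0.14 (SE, log2) in Txnrd1 (edgeR adjusted p = 0.000975) and by -0.49 ± 0.13 in Gclm (edgeR adjusted p = 0.0161). No member differed in oligodendrocytes, astrocytes or OPC, where 3.94%, 1.97% and 3.42% of genes did. Gpx4 did not pass in any of the 5 contrasts, the nearest being neurons at 0.37 ± 0.18 (edgeR adjusted p = 0.222). Slc7a11 in microglia differed by 1.72 ± 0.64 and did not pass (edgeR adjusted p = 0.100).

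Several of these calls did not pass with 1 library left out, which leaves a group with a single library. The differences kept their sign. In microglia they ranged from 0.95 to 1.21 in Txnrd1, 0.76 to 1.14 in Gclc, 0.31 to 1.22 in Nfe2l2 and -0.78 to -0.53 in Acsl4. In neurons they ranged from -0.87 to -0.58 in Txnrd1 and -0.58 to -0.35 in Gclm. Without NS replicate 2 none of the 6 calls passed, with edgeR adjusted p from 0.0595 to 0.307. Without NS replicate 1 those of Txnrd1 and Nfe2l2 in microglia and of Gclm in neurons were also lost (edgeR adjusted p = 0.0684, 0.104 and 0.0553). Without COL replicate 1 Nfe2l2 and Acsl4 in microglia did not pass (edgeR adjusted p = 0.319 and 0.0526), and without COL replicate 2 Gclm in neurons did not (edgeR adjusted p = 0.115). With the vascular cluster as a further class, Txnrd1 and Gclm in neurons and Nfe2l2 in microglia did not pass (edgeR adjusted p = 0.0527, 0.0596 and 0.0792).

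In the sum of all nuclei Txnrd1 was the member called of 10, where 9.45% of all 25570 genes were. It measured 30.5 and 27.8 CPM in NS and 43.2 and 41.8 CPM in COL (log2 0.70 ± 0.15 SE, edgeR adjusted p = 0.0415), and lost the call without NS replicate 1, NS replicate 2 or COL replicate 1 (edgeR adjusted p = 0.111, 0.119 and 0.0924). Nfe2l2 measured 16.0 and 17.8 CPM in NS and 20.0 and 34.8 CPM in COL (log2 0.82 ± 0.23 SE, edgeR adjusted p = 0.0669). Slc7a11 overlapped, at 26.8 and 24.3 CPM against 29.0 and 25.4 CPM. A change of cell makeup and a change within cells cannot be told apart in these sums. Astrocytes numbered 1167 and 1055 in NS against 171 and 246 in COL. They gave 1335 of 2077 and 957 of 1667 Slc7a11 UMIs in NS, but 498 of 2012 and 641 of 1764 in COL, where macrophages gave 578 and 310. The vascular cluster gave 56 and 139 of these UMIs in NS and 338 and 225 in COL. Unnamed clusters gave 92 and 37 in NS and 242 and 65 in COL, and mixed clusters 283 and 195 against 72 and 115.

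The other genes of the pathway, a list of 98, were read from the same fits. In microglia 21 of 76 tested were called, 8 higher (10.5%) and 13 lower (17.1%), beside 15.0% and 14.4% of all genes, with a median log2 fold change of -0.17. Higher were Gsr (glutathione reductase), Mafg (a partner of NRF2 on DNA), Hmox1, Pgd, Me1, Por, Ftl1 and Cybb. Hmox1, which breaks down haem, had 0 UMIs in both NS libraries and 208.6 and 162 CPM in COL, at least 87.3-fold higher against a floor of 3 counts over the group. Cybb, the catalytic subunit of the phagocyte NADPH oxidase, measured 0 and 2.79 CPM in NS and 9.22 and 28.3 CPM in COL (edgeR adjusted p = 0.00551). Hmox1 and Cybb passed the filter on low counts through COL, the group where they were high.

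Glutathione peroxidases and transferases made up 4 of the 13 lower calls in microglia, and none was higher. Of 13 such genes listed, 6 were tested there. Gstp1, Gstm5 and Gstm1 passed the filter on low counts through NS, the group where they were high. Gstp1 went from 20.2 and 34.8 CPM to 0.576 and 4.55 CPM (log2 -3.13 ± 0.58 SE, edgeR adjusted p = 0.00101). Gstm5 went from 53.9 and 58.5 CPM to 5.76 and 13.3 CPM (log2 -2.40 ± 0.35 SE, edgeR adjusted p = 0.000198). Gstm1 went from 13.5 and 13.9 CPM to 2.30 and 3.50 CPM (edgeR adjusted p = 0.00801). As with Gpx4, COL replicate 1 was the lowest library in all 3, and the ribosomal protein genes given above moved in the same libraries. Prdx2 and Prdx5 (peroxiredoxins), Mgst3, Nfe2l1, Tkt, Acsl3, Coq2, Fth1, Sod1 and Selenop were also lower.

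**Figure D4:**
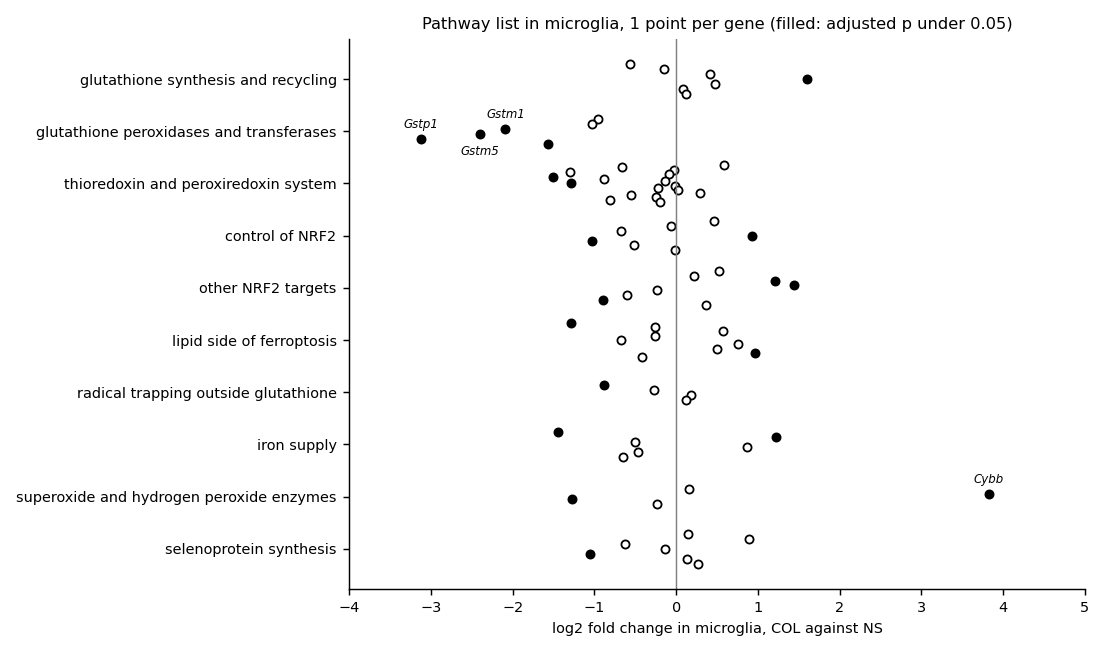
Log2 fold change in microglia, COL against NS (x axis), of the other genes of the pathway by the part they belong to (y axis), 1 point per gene tested and filled where the edgeR adjusted p was under 0.05. Hmox1 is left out because NS microglia held no UMI of it, and Gstp1, Gstm5, Gstm1 and Cybb are named as those farthest from 0.

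Astrocytes had on this list 7 higher and 15 lower of 83 tested (8.43% and 18.1%, beside 8.22% and 9.74% of all genes), and OPC had 4 higher and 11 lower of 76 (5.26% and 14.5%, beside 8.37% and 10.5%). Oligodendrocytes had 6 higher and 19 lower of 88 (6.82% and 21.6%, beside 10.0% and 12.3%). These totals moved with the processing. The 22 calls of astrocytes were 8 with DESeq2 and 13 without NS replicate 2, and the 15 of OPC were 3 with DESeq2 and 9 without NS replicate 2. The 25 of oligodendrocytes were 15 without NS replicate 1, 13 without NS replicate 2 and 46 without COL replicate 2. Hmox1 and Mafg were called higher in microglia, astrocytes, OPC and oligodendrocytes. In each of these classes and in neurons Hmox1 passed the filter on low counts through COL, the group where it was high. Hmox1 measured 0.441 and 0.557 CPM in NS astrocytes and 44.5 and 29.3 CPM in COL astrocytes, and 0.319 and 0.209 CPM in NS neurons against 9.39 and 9.73 CPM in COL neurons (edgeR adjusted p = 0.0497), the only gene called there. The macrophage list in neurons summed to 8.86 and 8.86 CPM in NS and 20.4 and 56.7 CPM in COL, with none of 7 markers tested called. The pathway list gave 0 calls in neurons without NS replicate 1 or NS replicate 2, 1 without COL replicate 1 and 18 without COL replicate 2.

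Of the glutathione peroxidases and transferases, 7 of 12 were lower in oligodendrocytes, 4 of 10 in OPC and 3 of 12 in astrocytes, and none was higher, beside the 12.3%, 10.5% and 9.74% of all genes called lower. The ribosomal protein genes fell in the same libraries, from 3423 and 3714 CPM to 983 and 2141 CPM in OPC and from 4032 and 4375 CPM to 892 and 1987 CPM in astrocytes, and their part was not tested. Gstm5 was lower in those classes as well, from 44.9 and 55.0 CPM to 4.87 and 15.4 CPM in oligodendrocytes (edgeR adjusted p = 0.00984). Prdx5 went from 48.9 and 58.5 CPM to 7.26 and 18.4 CPM in astrocytes (edgeR adjusted p = 0.00217). COL replicate 1 was the lowest library in both. Mboat1, an acyltransferase of membrane phospholipids, rose in astrocytes from 3.31 and 1.95 CPM to 14.5 and 7.46 CPM (edgeR adjusted p = 0.0167). Mboat1 passed the filter on low counts there through COL, the group where it was high. Of the genes of selenoprotein synthesis, Selenop in microglia was the single call in any class.

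Genes whose levels ran most like a member were read over the 20 class and library sums, among 10738 genes with a mean of at least 10 CPM. Gpx4 was most like Rps21 (Pearson r = 0.957), Tmem258 (0.953) and Chchd2 (0.950). Slc7a11 was most like Acot11 (0.975), Pdzph1 (0.966) and Acss3 (0.963). Nfe2l2 was most like Rrbp1 (0.980), Gclc like Snx8 (0.942), Txnrd1 like Rai14 (0.928), Acsl4 like Arhgap12 (0.964) and Gclm like mt-Rnr2 (0.816). The sums share libraries and depth, so these values describe likeness only.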

How the data were processed

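Nuclei of 4 libraries (NS replicates 1 and 2, COL replicates 1 and 2) were profiled with 10x chemistry. The authors sequenced them on a HiSeq4000, converted the reads with bcl2fastq, and counted them with Cell Ranger 1.2.0 on mm10, per the study's methods and the submitters' processing notes. The deposited tables hold UMI counts per gene and nucleus, as whole numbers and not normalised. Whether intronic reads were counted is not given in the sources used here. The tables held 32332 barcodes, of which 32291 passed the stated filter (over 50 genes, under 5% mitochondrial UMIs). No per-sample column was left out.

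Nuclei were clustered with Seurat 5.3.0 (5000 variable genes, 4984 after the members and the pathway list were left out, 15 principal components, resolution 0.8, 31 clusters). A cluster was named from lists of 8 markers per cell type. A cluster of 1433 nuclei with neuron markers stayed unnamed because Cd247 of the T and NK list was among its 10 leading genes, and mixed clusters of doublets were left out. Doublets were scored after the scrublet scheme from simulated doublets and 50 nearest neighbours in each library, and 4.74% to 8.34% of nuclei were called. Of these 2213 nuclei 1335 lay in mixed clusters, and those in named classes stayed in the sums.

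UMI counts were summed per library and class and tested with edgeR 4.0.16 (TMM, filterByExpr, quasi-likelihood test, two-sided, Benjamini-Hochberg over all genes of the class), in classes with at least 20 nuclei in every library. Differences between classes were fitted over the 5 main classes, without the vascular cluster, which holds markers of several cell types. With 2 libraries against 2, an exact permutation test of 1 gene could not give a two-sided p under 0.333. Each library pooled 3 mice, and the p-values of COL against NS within a class measure the spread between such pools. The fit of differences between classes has a term for each library. Its p-values measure the scatter of the class sums left after that term, taken over the 5 main classes together. On plain CPM the median change of all genes (log2) was -0.13 in neurons and in all nuclei, -0.10 in astrocytes, 0.096 in the vascular cluster and within -0.08 elsewhere, and changes are given relative to the TMM scaling. The alternatives were DESeq2 1.42.0, no filter on low counts, the replicate number as a block, each library left out, doublets removed, nuclei named by their own marker score, glutamatergic neurons only, and, added after seeing the data, neurons with the unnamed cluster microglia without the dividing cluster, and the vascular cluster as a further class in the differences between classes. The test in the vascular cluster was also added after seeing the data.

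In simulated counts with known changes edgeR called 89% of 4-fold and 36% of 2-fold changed genes in microglia (8 false calls in 12078 genes). In neurons it called 88% and 20% (7 false calls in 23305). The simulation gave every gene of a class the same spread between libraries, so these shares do not describe genes whose real spread was larger. Seurat and edgeR ran in R 4.3.3. Promoters are RefSeq windows of GRCm38.p6, in which no window for Gclc was found.

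All 10 members were named. Of the pathway list every called gene could be named, with values for up to 5 per class with the largest change, and likeness was read from log2(CPM + 1) for members with a mean of at least 10 CPM. The members and lists were chosen with earlier results of these data known.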

Additional observations from a re-analysis of the deposited data

Results flagged for a closer look

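A test of the difference between classes (the change in 1 class minus the mean change in the other 4, edgeR) picked out 6 results among the members. Over all 18109 genes 9.18% passed in microglia and 9.69% in neurons. In microglia the change exceeded that of the other classes by 1.03 in Txnrd1, 0.88 in Gclc and 0.67 in Nfe2l2 (log2), and it lay below it in Acsl4, at -0.71. In neurons it lay below that of the other classes in Txnrd1, at -0.74, and in Gclm, at -0.49. NS and COL nuclei of microglia lay in different clusters, and the macrophage markers summed higher in both COL libraries of microglia than in both NS libraries. Their part in these differences was not tested. None of the 6 passed without NS replicate 2 (edgeR adjusted p from 0.0595 to 0.307), and with the vascular cluster as a further class Txnrd1 and Gclm in neurons and Nfe2l2 in microglia did not pass (edgeR adjusted p = 0.0527, 0.0596 and 0.0792).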

How the results depend on the processing

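The number of members called in neurons was 0 by edgeR with the design reported, 1 with DESeq2, 1 with no filter on low counts and 0 to 1 with 1 library left out. In oligodendrocytes it was 1, then 2, 2 and 1 to 3. In astrocytes it was 2, then 4 with no filter and 1 to 3 with 1 library left out. In microglia it was 6, then 3 with DESeq2 and 3 to 5. In OPC it was 2, then 1 with DESeq2 and 1 to 2, and in all nuclei 1, then 3 with DESeq2, 3 with no filter and 0 to 2. On the pathway list it was 1 in neurons, 8 with DESeq2, 23 with no filter and 0 to 18 with 1 library left out. With 1 library left out the list gave 13 to 46 calls in oligodendrocytes (25 with all), 13 to 25 in astrocytes (22), 18 to 25 in microglia (21) and 9 to 22 in OPC (15), and DESeq2 gave 8 in astrocytes and 3 in OPC. The differences between classes numbered 2 in neurons (0 to 3 with 1 library left out) and 4 in microglia (0 to 4). With the vascular cluster as a further class, chosen after seeing the data, none was called in neurons and 3 in microglia. The vascular cluster itself gave 0 calls of the pathway list, 1 with no filter and 0 to 1 with 1 library left out. The replicate number was used as a block although same-numbered libraries share only a number, with deviations correlated at -0.030 to 0.15. The block gave 2 members called in oligodendrocytes, 4 in astrocytes, 3 in all nuclei, 4 differences between classes in neurons, 4 calls of the pathway list in neurons and 1 in the vascular cluster. Among the changes that did not pass the test, the sign turned in glutamatergic neurons alone for Nfe2l2 (0.028) and Gclm (0.066), in astrocytes with no filter for Acsl4 (-0.025), and with nuclei named by their own markers for Nfe2l2 in astrocytes (0.068) and Slc7a11 in OPC (-0.43). Nfe2l2 in the vascular cluster was -0.019, then 0.19 with DESeq2, 0.21 with no filter, 0.040 with the block and -0.30 to 0.75 with 1 library left out, where Slc7a11 ranged from -0.34 to 0.86. With 1 library left out the log2 change ranged in neurons from -0.089 to 0.45 for Slc7a11, -0.034 to 0.36 for Acsl4, -0.87 to 0.014 for Nfe2l2, -0.20 to 0.037 for Gclm and -0.14 to 0.39 for Aifm2. In oligodendrocytes it ranged from -0.32 to 0.47 for Slc7a11, -0.18 to 0.41 for Acsl4, -0.30 to 0.32 for Nfe2l2, -0.13 to 0.17 for Gclm and -0.50 to 0.32 for Aifm2. It ranged from -0.36 to 0.40 for Acsl4 and -0.35 to 0.094 for Nfe2l2 in astrocytes, from -0.20 to 0.72 for Nfe2l2 and -2.03 to 0.45 for Srxn1 in OPC, and from -0.054 to 0.45 for Acsl4 and -0.070 to 0.34 for Aifm2 in all nuclei. The cause of these shifts was not tested. No called member changed direction under any of these alternatives. Of the 527 member changes recomputed, 446 kept direction and side of the threshold, 22 lost the call, 26 gained it and 33 turned sign. Doublets removed and nuclei named by their own markers were not run in the vascular cluster. Of the 5 main classes Nqo1 was tested in neurons and oligodendrocytes only, and few UMIs limit Slc7a11 in oligodendrocytes, OPC and microglia.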
